A study of Mus musculus with 7 samples.

Results

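Matricellular and basement membrane glycoproteins were followed in induced hepatic stem cells (iHepSCs), in primary hepatocytes (pHep) and in the mouse embryonic fibroblasts (MEF) from which such cells are made. The genes listed were Thbs1, Thbs2, Thbs3, Postn, Fn1, Sparc, Fstl1, Nid1, Nid2 and Fbn1, and the members are all probe sets annotated to these genes. Of 10 genes listed, 9 had a probe set that carries their symbol alone, with 18 such probe sets among the 45101 on the array and 9 of 18193 genes in all. Fbn1 was not analysed here. The genes were chosen by their levels in iHepSCs against MEF, which were already known from these arrays, so that comparison is given as a description: where the share of all genes that passed the fit's threshold stands beside a count of members there, the choice of genes fixes the count and nothing is read from it.

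The samples were 7 Affymetrix mouse genome arrays of C57BL/6 cells (C57BL/6J in the study's methods): 2 of iHepSCs, 1 of pHep and 4 of MEF. iHepSCs are epithelial colonies picked after lentiviral transduction of MEF with Oct4 and Hnf4α and grown on collagen, with replicate 1 taken at passage 3 (P3) and replicate 2 at passage 20 (P20). The study examined 1 clone, iHepSC-C3, in detail without naming the clone of these arrays, and since both arrays may be of that clone, variation between clones was not measured. pHep were collagenase-perfused, Percoll-purified hepatocytes of young adult male mice that were plated for a few hours before lysis, and MEF were untransduced fibroblasts of mid-gestation embryos without head and internal organs. The replicates are not said to be separate cultures, and the p-values below measure only the spread between these arrays, which may be technical. Levels are log2 values after Robust Multiarray Analysis (RMA), on which a difference of 1 is a doubling, and array minima lay between 3.01 and 3.19 and array medians between 6.28 and 6.33.

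The extracellular matrix has a structural scaffold of collagens and laminins and, woven into it, glycoproteins that connect its parts and signal to cells. Matricellular proteins such as thrombospondins, periostin and SPARC have little structural role of their own. They bind growth factors, proteases and cell surface receptors, and they are known for their high levels in development and wound repair. Nidogens connect laminin with type IV collagen in basement membranes. In the liver, hepatocytes secrete the plasma form of fibronectin, while stellate cells and portal fibroblasts are known sources of most of the other matrix proteins.

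Promoter windows show the sequence at the start of the genes whose levels differed most and least between iHepSCs and MEF. RefSeq windows (GRCm38.p6, 250 bases before to 50 bases after the start) were matched by symbol for 6 members, with 2 windows for Postn and 7 windows in all, and Thbs1, Fn1 and Nid2 had no window. Fstl1 and Nid1 are shown as the members with a window that were furthest below MEF in iHepSCs, and Sparc as the member that was closest to MEF. The Fstl1 window lies at chr16:37776805-37777104 on the plus strand, the Nid1 window at chr13:13437352-13437651 on the plus strand and the Sparc window at chr11:55420031-55420330 on the minus strand. Capitals mark matches to the GC box GGGCGG and to the TEAD motif GGAATG, searched on both strands.
Fstl1: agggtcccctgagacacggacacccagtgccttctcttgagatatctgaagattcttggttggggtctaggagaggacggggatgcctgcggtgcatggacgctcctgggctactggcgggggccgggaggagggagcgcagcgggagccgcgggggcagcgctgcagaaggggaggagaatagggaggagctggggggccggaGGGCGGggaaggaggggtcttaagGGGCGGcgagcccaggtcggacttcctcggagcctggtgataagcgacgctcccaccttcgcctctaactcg
Nid1: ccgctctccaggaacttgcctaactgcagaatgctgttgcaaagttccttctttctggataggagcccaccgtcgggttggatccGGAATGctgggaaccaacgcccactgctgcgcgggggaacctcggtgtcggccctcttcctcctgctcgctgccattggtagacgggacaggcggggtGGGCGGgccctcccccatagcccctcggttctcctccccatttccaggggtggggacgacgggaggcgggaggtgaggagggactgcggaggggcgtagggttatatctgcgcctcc
Sparc: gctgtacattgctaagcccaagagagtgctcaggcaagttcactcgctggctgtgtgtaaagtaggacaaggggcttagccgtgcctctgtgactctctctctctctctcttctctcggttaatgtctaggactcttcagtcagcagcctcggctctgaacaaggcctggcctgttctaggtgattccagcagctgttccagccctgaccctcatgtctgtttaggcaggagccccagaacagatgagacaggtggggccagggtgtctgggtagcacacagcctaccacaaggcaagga

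The GC box was found in 3 of the 7 windows, those of Thbs3, Nid1 and Fstl1, and in 35.7% of the 32851 windows of all genes. The first bases of its 2 matches in Fstl1 lay at -46 and -22 from the start, that of Nid1 at -67 and that of Thbs3 at -21. The TEAD motif was found in Nid1 alone, at -165, and in 14.7% of all windows. TATAAA was found in the second Postn window at -26 and in the Thbs2 window at -126, and in 13.6% of all windows. Neither the AP-1 motif TGANTCA nor the SRF CArG box was found in the 7 windows, and they were found in 7.8% and 1.6% of all windows. The Sparc window held none of these motifs. A match here describes the letters of the window and no binding was measured.

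On the probe sets that read them, Thbs1, Nid1 and Fstl1 were at the 19.6, 7.8 and 6.6 percentile of all genes in iHepSCs. In MEF they were at the 99.6, 98.4 and 99.1 percentile. On another probe set, 1448469_at, Nid1 read 6.40 and 6.31 in iHepSCs, near the array medians. Sparc and Fn1 were at high levels in both cells. On the probe set that reads each gene, the iHepSC mean lay below the MEF mean by 1.66-fold (Sparc) to 595-fold (Fstl1). The median log2 difference of the 9 genes was -4.87, and that of all genes was 0.01. The share of all genes past the threshold as lower was 13.4%, and the 9 genes, chosen with this contrast known, were all past it, a count that their choice fixes and from which nothing is read. Over all genes, 2446 were lower and 3310 higher in iHepSCs, and 1053 were lower and 4557 higher with arrays centred on Gapdh. In iHepSCs, 7 of the 9 genes had a mean level under 6.5, as 38.5% of all genes did. In MEF, 8 of the 9 had a mean level of at least 9, as 32.9% of all genes did. The choice of genes by these levels favours both counts, and nothing is read from them.

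**Figure D1:**
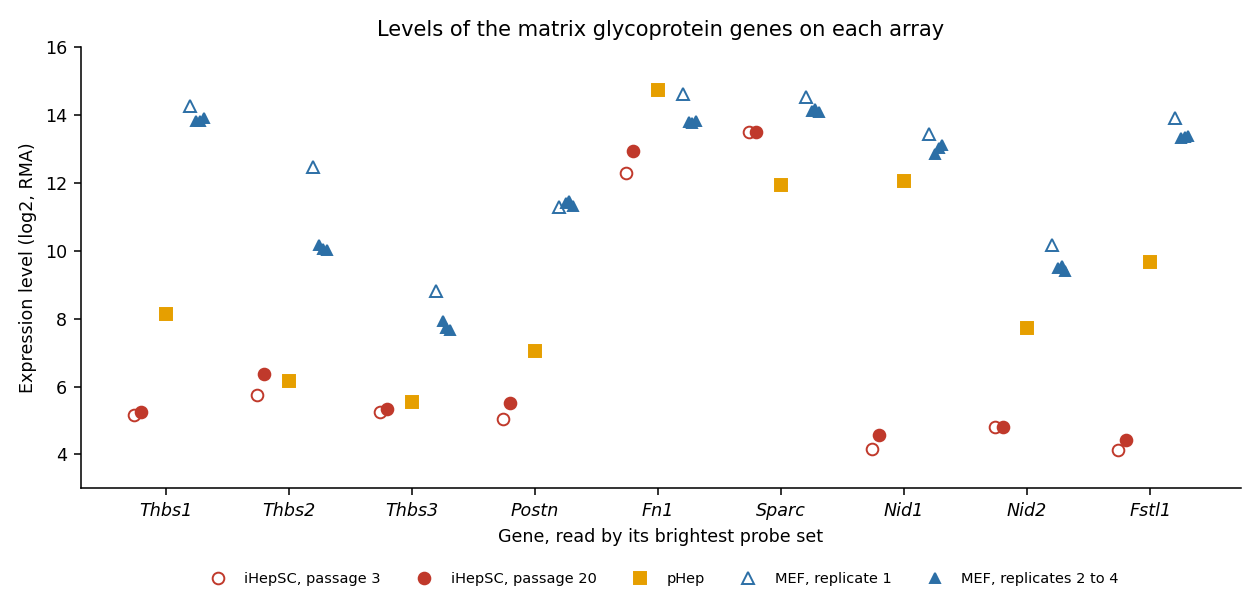
Log2 expression level (vertical axis) of each gene on its brightest probe set, with iHepSC arrays as circles (open, passage 3; filled, passage 20), the pHep array as squares and MEF arrays as triangles (open, replicate 1; filled, replicates 2 to 4). Fn1 and Sparc were above 12 in iHepSCs, and the other 7 genes were under 6.5 there. The pHep array lay between iHepSCs and MEF for Thbs1, Thbs3, Postn, Nid1, Nid2 and Fstl1.

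Thbs1 encodes thrombospondin 1, a trimeric glycoprotein that activates latent TGF-β and restrains angiogenesis. Its level was 5.15 and 5.26 in iHepSCs (P3 and P20), 8.15 in pHep, and 14.29, 13.82, 13.83 and 13.92 in MEF. The 3 cell types did not overlap, and in iHepSCs Thbs1 was 434-fold lower than in MEF (log2 difference -8.76, SE 0.16), with only 5 genes of 18193 further below MEF. In pHep it was 56.2-fold lower than in MEF (log2 difference -5.81, SE 0.20, adjusted p = 1.36e-05). Its other probe set, 1450377_at, read 5.59 and 5.45 in iHepSCs, 6.67 in pHep and 12.72 to 13.08 in MEF. Another probe set, 1421811_at, is annotated to both Thbs1 and Pald1 and was left out of the gene values, and it read 5.82 and 6.47 in iHepSCs, 11.08 in pHep and 13.93 to 14.16 in MEF. The order of the cell types was the same on the 3 probe sets, while the level in pHep differed between them.

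Thbs2 encodes thrombospondin 2, which is closely related to thrombospondin 1 but lacks the sequence that activates TGF-β. Its level on 1450663_at was 5.74 and 6.36 in iHepSCs, 6.15 in pHep, and 12.46, 10.19, 10.04 and 10.03 in MEF. MEF replicate 1 stood more than 2 above the other MEF arrays, and all MEF arrays were above all others. The log2 difference of iHepSCs from MEF was -4.63 (SE 0.74) and that of pHep was -4.53 (SE 0.96, adjusted p = 0.0163). On 1422571_at the MEF arrays lay within 11.68 to 11.96, and the level was 4.42 and 4.79 in iHepSCs and 4.49 in pHep. On 1447862_x_at it was 4.21 and 4.22 in iHepSCs, 4.19 in pHep and 8.55 to 9.39 in MEF. iHepSCs and pHep differed by -0.10 on the log2 scale (SE 1.05, adjusted p = 0.964), turning to 0.36 with arrays centred on Gapdh, and the pHep value lay between or next to the 2 iHepSC values on each of the 3 probe sets.

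Thbs3, a pentameric thrombospondin, was the dimmest member in MEF. Its level was 5.24 and 5.35 in iHepSCs, 5.53 in pHep, and 8.82, 7.93, 7.73 and 7.66 in MEF. The log2 difference from MEF was -2.74 in iHepSCs (SE 0.34) and -2.50 in pHep (SE 0.43, adjusted p = 0.00789). iHepSCs and pHep differed by -0.24 (SE 0.48, adjusted p = 0.79), less than the standard error, and by 0.22 with arrays centred on Gapdh.

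Postn encodes periostin, a matricellular protein that binds integrins and assists collagen fibre formation. Its level was 5.04 and 5.50 in iHepSCs, 7.03 in pHep, and 11.28, 11.41, 11.46 and 11.32 in MEF. Its MEF arrays were the most alike of the members on the reading probe set, with a mean of 11.37 ± 0.08 (SD, n = 4). Postn was 68.6-fold lower in iHepSCs than in MEF. In pHep it was 20.2-fold lower than in MEF (log2 difference -4.33, SE 0.19, adjusted p = 3.18e-05), and the log2 difference of iHepSCs from pHep was -1.77 (SE 0.21, adjusted p = 0.00252, lost at adjusted p = 0.0567 with arrays centred on Gapdh). The call against pHep was also lost with the methods' t-test.

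Fstl1 encodes a secreted glycoprotein of the SPARC family that modulates BMP and TGF-β signalling. Its level was 4.12 and 4.42 in iHepSCs, 9.66 in pHep, and 13.91, 13.32, 13.34 and 13.37 in MEF. The cell types were far apart, and in iHepSCs Fstl1 was 595-fold lower than in MEF (log2 difference -9.22, SE 0.20), with 1 gene of 18193 further below. pHep was 14.1-fold below MEF (log2 difference -3.82, SE 0.26, adjusted p = 0.000182). iHepSCs were 42.1-fold below pHep (log2 difference -5.40, SE 0.29, adjusted p = 9.07e-05). The other probe set, 1448259_at, gave 4.49 and 4.43 in iHepSCs, 8.74 in pHep and 12.94 to 13.63 in MEF.

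Sparc encodes the collagen-binding protein osteonectin, which is made by many mesenchymal, endothelial and parietal endoderm cells. Its level was 13.52 and 13.49 in iHepSCs, 11.93 in pHep, and 14.54, 14.12, 14.18 and 14.11 in MEF. The log2 difference of iHepSCs from MEF was -0.73 (SE 0.15), the smallest difference among the members, and Sparc was at the 99.0 percentile of all genes in iHepSCs. Sparc was the only member whose level was higher in iHepSCs than in pHep past the test, by 1.58 (SE 0.21, adjusted p = 0.00389). That call was lost with the methods' t-test and with the replicate number as a block. In pHep, Sparc fell by 2.31 relative to MEF (SE 0.19, adjusted p = 0.000401). The probe set 1448392_at kept this order, with 12.09 and 12.19 in iHepSCs, 10.71 in pHep and 13.18 to 13.70 in MEF. On the dim probe set 1458204_at all arrays lay between 6.48 and 7.43, and no comparison passed the test there.

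Fn1 encodes fibronectin, which carries the main binding site for integrin α5β1 and is also a plasma protein made by hepatocytes. Its level on 1426642_at was 12.31 and 12.96 in iHepSCs, 14.74 in pHep, and 14.62, 13.80, 13.76 and 13.81 in MEF. iHepSCs were below all MEF arrays (log2 difference -1.37, SE 0.31), and the pHep array was above all of them (log2 difference 0.74, SE 0.40, adjusted p = 0.206). The log2 difference of iHepSCs from pHep was -2.11 on this probe set (SE 0.44, adjusted p = 0.0229), a call that was lost without MEF replicate 2 or 4 (adjusted p = 0.0512 for each), without iHepSC replicate 1 (adjusted p = 0.106), with arrays centred on Gapdh (adjusted p = 0.113), with the methods' t-test (adjusted p = 0.356) and with the replicate number as a block (adjusted p = 0.269). Without MEF replicate 1 the difference of pHep from MEF was 0.95 and passed the test (adjusted p = 0.00947). On the second probe set, 1437218_at, the level was 6.79 and 6.97 in iHepSCs, 12.34 in pHep, and 9.72, 9.94, 9.66 and 9.66 in MEF. There pHep was 6.05-fold above MEF (log2 difference 2.60, SE 0.16, adjusted p = 0.000141 over all probe sets) and iHepSCs were 44.0-fold below pHep (log2 difference -5.46, SE 0.17, adjusted p = 2.36e-05). The 2 probe sets therefore gave the same order of cell types with unequal distances. Which transcript forms of Fn1 each probe set reads was not determined.

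Nid1 and Nid2 encode nidogen 1 and nidogen 2. Nid1 on 1416808_at was at 4.17 and 4.58 in iHepSCs, 12.07 in pHep, and 13.46, 12.85, 13.04 and 13.12 in MEF. It was 429-fold lower in iHepSCs than in MEF (log2 difference -8.74, SE 0.20), with 6 genes of 18193 further below. In pHep the log2 difference from MEF was -1.04 (SE 0.26, adjusted p = 0.0289), and this call was lost without MEF replicate 3 (adjusted p = 0.0636), without MEF replicate 4 (adjusted p = 0.0684), with arrays centred on Gapdh (adjusted p = 0.173), with the methods' t-test (adjusted p = 0.124) and with the replicate number as a block (adjusted p = 0.302). iHepSCs were 208-fold below pHep (log2 difference -7.70, SE 0.29, adjusted p = 2.5e-05). This was the widest gap between these cells among the members on the probe sets that read them. On its other probe sets the gap of Nid1 was smaller, at -2.08 (1448469_at) and -1.46 (1441519_at, not past the test).

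The 3 probe sets of Nid1 gave unequal distances. 1448469_at read 6.40 and 6.31 in iHepSCs, 8.43 in pHep, and 10.20, 10.89, 10.91 and 10.88 in MEF, with a log2 difference of -2.08 between iHepSCs and pHep. The dim 1441519_at read 3.80 and 3.74 in iHepSCs, 5.23 in pHep, and 4.49, 5.99, 5.85 and 5.65 in MEF. Here pHep lay within the MEF range, as on no other member probe set, and MEF replicate 1 was the lowest MEF array on both of these probe sets, while on 1416808_at it was the highest.

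Nid2 was at 4.79 on both iHepSC arrays, 7.73 in pHep, and 10.17, 9.50, 9.55 and 9.42 in MEF. The 2 iHepSC values were identical to all digits deposited, as for 1071 probe sets of the array. The log2 difference of iHepSCs from MEF was -4.87 (SE 0.22). The log2 difference was -1.93 for pHep against MEF (SE 0.29, adjusted p = 0.00449) and -2.94 for iHepSCs against pHep (SE 0.32, adjusted p = 0.00165). Both nidogens thus had the order iHepSCs, pHep, MEF from low to high.

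**Figure D2:**
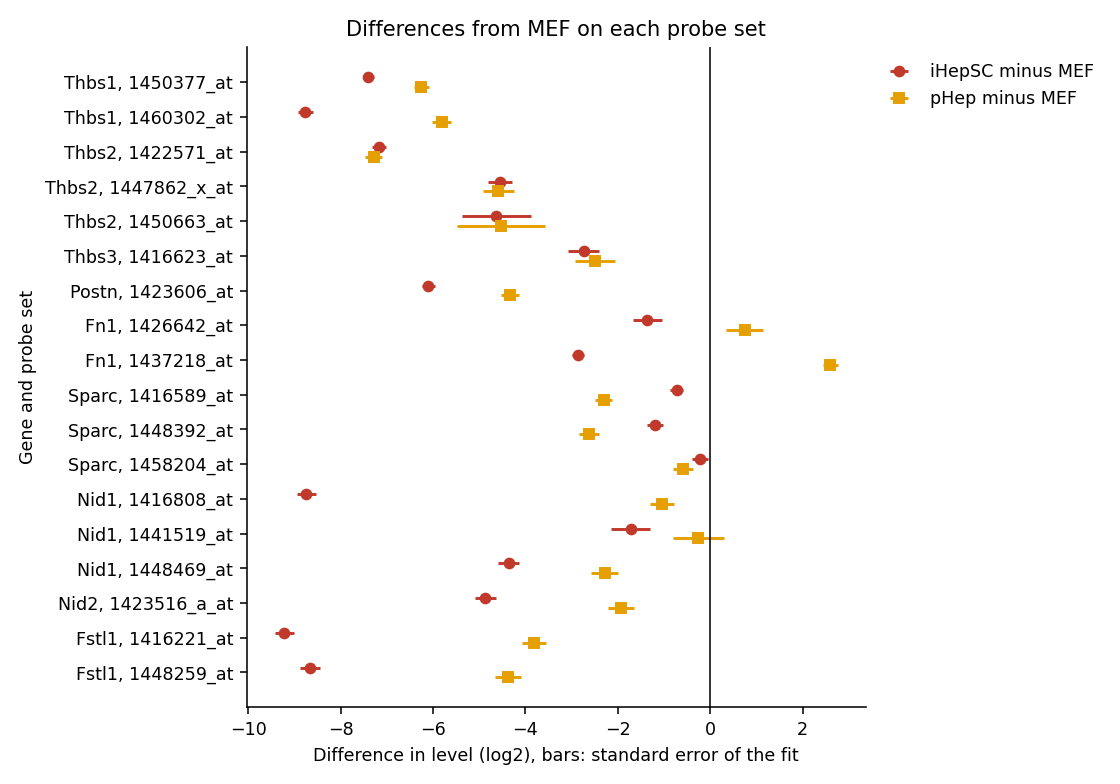
Log2 difference from MEF (horizontal axis) for each of the 18 member probe sets, for iHepSCs as circles and pHep as squares, with bars showing the standard error of the fit. Both Fn1 probe sets were lower in iHepSCs and higher in pHep than in MEF, and the Sparc probe sets were further below MEF in pHep than in iHepSCs.

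Over probe sets, 17 of the 18 were past the threshold as lower in iHepSCs than in MEF, where 9.76% of all probe sets were, and nothing is read from this count, which the choice of genes fixes. In pHep against MEF, 14 were lower and 1 was higher, where 12.3% and 15.4% of all probe sets were. In iHepSCs against pHep, 10 were lower and 2 were higher, against 9.13% and 6.48% of all probe sets. The 2 that were higher in iHepSCs were both of Sparc, and the 1 that was higher in pHep than in MEF was of Fn1. Probe sets of 1 gene read the same RNA and are not independent. Choosing genes by their levels in iHepSCs and MEF also favours the lower counts in both comparisons with pHep.

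In primary hepatocytes against MEF, 8 of the 9 genes passed the test as lower and none as higher, where 15.5% and 14.8% of all genes did. Their median log2 difference was -2.50, against -0.13 for all genes. In iHepSCs against pHep, Thbs1, Postn, Fn1, Nid1, Nid2 and Fstl1 were lower, 6 of 9 genes against 7.89% of all genes, Sparc was higher, 1 of 9 against 9.26%, and Thbs2 and Thbs3 did not pass the test. The median difference there was -2.11, against 0.15 for all genes. None of these member calls between iHepSCs and pHep held with the methods' t-test. Both comparisons with pHep share the MEF or the iHepSC arrays with the one known when the genes were chosen, so that choice favours their lower counts. pHep is 1 array, whose spread is taken to equal that of iHepSCs and MEF. The percentile of the pHep level among all genes on that array ran from 27.1 (Thbs3) to 99.9 (Fn1), with Nid1 at 94.7 and Sparc at 93.9.

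Markers of Kupffer cells, the macrophages of the liver, were measured on the pHep array beside those of hepatocytes. Of 12 Kupffer cell markers, 9 rose in pHep against MEF and none fell, where 14.8% of all genes rose and 15.5% fell. The summed level of the list was 9.91 and 9.85 on the log2 scale in iHepSCs, 14.53 in pHep and 11.07 to 12.71 in MEF. Lyz2 was the highest of the list in pHep, at 13.45, and it was at 6.98 and 6.73 in iHepSCs and 9.60 to 11.95 in MEF. The complement chain genes C1qa, C1qb and C1qc were at 11.08, 11.05 and 10.85 in pHep. There Vsig4 was at 11.57, Csf1r at 10.59 and Marco at 9.24, while Clec4f was at 6.08 and Adgre1 at 7.69. The fibroblast list was lower in pHep than in MEF for 10 of 10 genes, of which 9 passed the test, where 15.5% of all genes did. Its summed level, in which Vim weighs most in iHepSCs and pHep, was 14.30 and 14.07 in iHepSCs, 13.82 in pHep and 16.14 to 16.84 in MEF. Its median level had another order, with 6.08 and 6.22 in iHepSCs, 8.69 in pHep and 11.74 to 12.85 in MEF. In iHepSCs against pHep, 4 of the 10 fibroblast genes were lower (Col1a1, Col1a2, Col3a1 and Pdgfrb), Vim was higher, and 5 did not pass the test, where 7.89% of all genes were lower and 9.26% higher. Col3a1 was at 5.20 and 4.92 in iHepSCs and 10.87 in pHep. Pdgfrb was at 3.31 and 3.52 in iHepSCs and 8.83 in pHep, while Vim was at 14.20 and 13.97 in iHepSCs and 13.19 in pHep.

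Of the 10 stellate cell markers, 3 fell and 1 rose in pHep against MEF, where 15.5% of all genes fell and 14.8% rose. Their summed level was 9.38 and 9.73 in iHepSCs, 10.35 in pHep and 11.94 to 12.89 in MEF. In pHep and MEF, Pdgfrb, which is also on the fibroblast list, weighs most in this sum. Their median level was 6.00 and 6.18 in iHepSCs, 6.35 in pHep and 6.15 to 6.58 in MEF. Pdgfrb, a receptor for platelet-derived growth factor, fell by 3.06 in pHep (SE 0.40, adjusted p = 0.00273). Des, which encodes desmin, fell by 0.96 (SE 0.20, adjusted p = 0.0163), and Hgf, which encodes hepatocyte growth factor, fell by 0.87 (SE 0.24, adjusted p = 0.0372). Reln, which stellate cells of the liver express, was the one that rose, by 1.53 (SE 0.24, adjusted p = 0.00502), to 6.69 in pHep against 5.01 to 5.55 in MEF. The 10 endothelial markers gave 2 lower and none higher in pHep, beside the same shares of 15.5% and 14.8% of all genes. Their summed level was 10.26 and 10.22 in iHepSCs, 9.23 in pHep and 9.74 to 9.93 in MEF. The 7 platelet markers gave 2 lower and none higher in pHep, beside these same shares. Their summed level was 9.69 and 9.54 in iHepSCs, 9.44 in pHep and 10.96 to 12.07 in MEF, where Ppbp weighs most. Their median level was 6.95 and 6.80 in iHepSCs, 6.57 in pHep and 6.89 to 7.28 in MEF. Of hepatocyte markers, 9 of 9 rose in pHep, where 14.8% of all genes did. In iHepSCs 8 of 9 rose, where 18.2% of all genes did. The exception was Tat, at 6.16 and 6.43 in iHepSCs, 11.30 in pHep and 6.06 to 6.60 in MEF. No value on these arrays is 0. The part of other liver cells in the pHep levels of Thbs1, Nid1, Nid2, Fstl1 and the other members was not tested, and in such samples a lower share of cells and a lower RNA level per cell cannot be told apart.

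Of the fibroblast markers in iHepSCs, 10 of 10 were lower than in MEF, where 13.4% of all genes were. Thy1 was at 4.84 and 5.10 in iHepSCs and 11.88 to 13.08 in MEF, whereas Vim, which encodes vimentin, was at 14.20 and 13.97 in iHepSCs and 14.56 to 14.64 in MEF.

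Of 22 other matricellular genes measured, 12 were lower and 1 was higher in iHepSCs than in MEF, where 13.4% and 18.2% of all genes were, with a median log2 difference of -0.49. In pHep 9 were lower and 1 was higher, where 15.5% and 14.8% of all genes were, with a median of -0.44. Over all genes without MEF replicate 1, 4514 were lower and 5638 higher in iHepSCs, against 2446 and 3310 with it, and 5743 were lower and 4917 higher in pHep, against 2814 and 2696 with it, so the list counts given below without this array stand beside a larger share of all genes. Tnc, which encodes tenascin C, fell the most in both cells: it was at 5.20 and 5.11 in iHepSCs, 6.74 in pHep and 12.38 to 12.66 in MEF (log2 difference -7.32 in iHepSCs, SE 0.11, adjusted p = 6.6e-07, and -5.73 in pHep, SE 0.15, adjusted p = 5.86e-06). Smoc2, of the SPARC family, fell by 5.63 in iHepSCs (SE 0.76, adjusted p = 0.0023), and Ccn3, of the CCN family, fell by 5.42 in pHep (SE 0.55, adjusted p = 0.000976). Without MEF replicate 1, 14 genes were lower in pHep and 2 were higher in iHepSCs.

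The 2 rises in this list belonged to different cells. Tnxb, which encodes tenascin X, was at 9.53 and 9.49 in iHepSCs, 5.06 in pHep and 5.40 to 5.79 in MEF (log2 difference 3.93 in iHepSCs, SE 0.13, adjusted p = 6.26e-06). Smoc1, the close relative of Smoc2, was at 6.90 and 6.79 in iHepSCs, 12.61 in pHep and 8.85 to 10.11 in MEF, so that it rose in pHep (log2 difference 3.39, SE 0.48, adjusted p = 0.0036) and fell in iHepSCs (log2 difference -2.38, SE 0.37, adjusted p = 0.00427). iHepSCs and pHep differed by -5.77 for Smoc1 (SE 0.53, adjusted p = 0.000807) and by 4.44 for Tnxb (SE 0.18, adjusted p = 3.29e-05).

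Fbn1 forms microfibrils, on which elastic fibres are built. Of 15 other genes of these structures measured, 10 were lower, none was higher and 5 did not pass the test in iHepSCs, where 13.4% of all genes were lower, with a median log2 difference of -3.75. In pHep 10 were lower, none was higher and 5 did not pass, where 15.5% of all genes were lower, with a median of -3.33. Fbln5, which encodes fibulin 5 of elastic fibres, was at 5.25 and 5.19 in iHepSCs, 5.75 in pHep and 12.36 to 13.34 in MEF. Loxl1, a lysyl oxidase-like enzyme that cross-links elastin, fell by 7.23 in iHepSCs (SE 0.21, adjusted p = 3.59e-06). Mfap5, a microfibril-associated glycoprotein, fell by 6.56 in pHep (SE 0.39, adjusted p = 9.44e-05). Without MEF replicate 1, 1 gene was higher in pHep.

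Of 14 basement membrane glycoprotein genes other than the nidogens, 3 were lower and 3 were higher in iHepSCs than in MEF, where 13.4% and 18.2% of all genes were, with a median log2 difference of 0.01. In pHep 1 was lower and 2 were higher, where 15.5% and 14.8% of all genes were, with a median of -0.19. Agrn, which encodes the heparan sulfate proteoglycan agrin, was at 12.71 and 12.87 in iHepSCs, 13.19 in pHep and 8.89 to 10.94 in MEF (log2 difference 3.38 in iHepSCs, SE 0.62, adjusted p = 0.00828, and 3.77 in pHep, SE 0.80, adjusted p = 0.0167). Ntn4, which encodes the laminin-binding netrin 4, was at 10.47 and 10.73 in iHepSCs, 10.99 in pHep and 6.74 to 8.72 in MEF. Npnt, an integrin ligand, fell by 2.31 in iHepSCs (SE 0.46, adjusted p = 0.0109), Fbln2 fell by 2.12 there (SE 0.52, adjusted p = 0.0246), and Fbln1 fell by 2.80 in pHep (SE 0.14, adjusted p = 5.51e-05). No gene of this list passed as higher in iHepSCs in the limma fit without iHepSC replicate 1 or without iHepSC replicate 2, and only 1 passed as lower without replicate 2. Without MEF replicate 1, 4 genes were lower and 4 were higher in pHep.

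Nidogens bind laminin and type IV collagen. Of 16 chain genes, 3 were lower and 3 were higher in iHepSCs, beside 13.4% and 18.2% of all genes, with a median log2 difference of -0.13. In pHep 4 were lower and 1 was higher, beside 15.5% and 14.8% of all genes, with a median of -0.49. Lama4 was at 5.13 and 5.40 in iHepSCs, 5.86 in pHep and 8.80 to 10.67 in MEF, and Lama2 had a log2 difference of -2.55 in iHepSCs (SE 0.13, adjusted p = 4.36e-05). Lamb3 was at 9.13 and 9.28 in iHepSCs, 4.69 in pHep and 5.04 to 5.48 in MEF (log2 difference 3.93 in iHepSCs, SE 0.15, adjusted p = 1e-05), and it differed between iHepSCs and pHep by 4.51 (SE 0.21, adjusted p = 4.52e-05). Lama5, the α chain of epithelial basement membranes, was at 10.56 and 10.58 in iHepSCs, 10.04 in pHep and 7.66 to 8.91 in MEF. Lamb1, a β chain, was at 10.51 and 10.53 in iHepSCs, 7.60 in pHep and 12.67 to 12.83 in MEF. Col4a1, which encodes a collagen chain that nidogens join to laminin, was at 11.94 and 11.81 in iHepSCs, 12.31 in pHep and 12.50 to 13.52 in MEF, and did not pass the test in iHepSCs (adjusted p = 0.0629) or in pHep (adjusted p = 0.371); it was named after its values were seen. Without MEF replicate 1, 6 chain genes were lower and 5 were higher in iHepSCs, and 8 were lower and 2 were higher in pHep. The 1 gene that was higher in pHep, Lama5, was lost without any 1 of the other MEF or iHepSC arrays.

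Of 16 receptor genes, 4 were lower and 6 were higher in iHepSCs than in MEF, beside 13.4% and 18.2% of all genes, with a median log2 difference of 0.29. In pHep 2 were lower and 5 were higher, beside 15.5% and 14.8% of all genes, with a median of 0.43. Cd36, a thrombospondin receptor and fatty acid carrier, was at 10.64 and 11.26 in iHepSCs, 11.35 in pHep and 6.11 to 6.39 in MEF (log2 difference 4.70 in iHepSCs, SE 0.19, adjusted p = 1.44e-05). Itga5, the α chain of the fibronectin receptor, was at 6.64 and 6.81 in iHepSCs, 7.09 in pHep and 8.55 to 9.55 in MEF, and Itgb1, its β chain, was at 10.65 and 10.41 in iHepSCs, 10.36 in pHep and 12.30 to 13.04 in MEF. Itga3, the α chain of a laminin receptor, rose by 2.15 in iHepSCs (SE 0.12, adjusted p = 6.33e-05) and by 2.80 in pHep (SE 0.16, adjusted p = 8.28e-05). Itga8, an α chain that pairs with Itgb1, was at 4.61 and 4.31 in iHepSCs, 6.05 in pHep and 8.15 to 10.72 in MEF. Without iHepSC replicate 2, 2 genes were lower in iHepSCs, and without MEF replicate 1, 8 genes were higher in pHep.

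**Figure D3:**
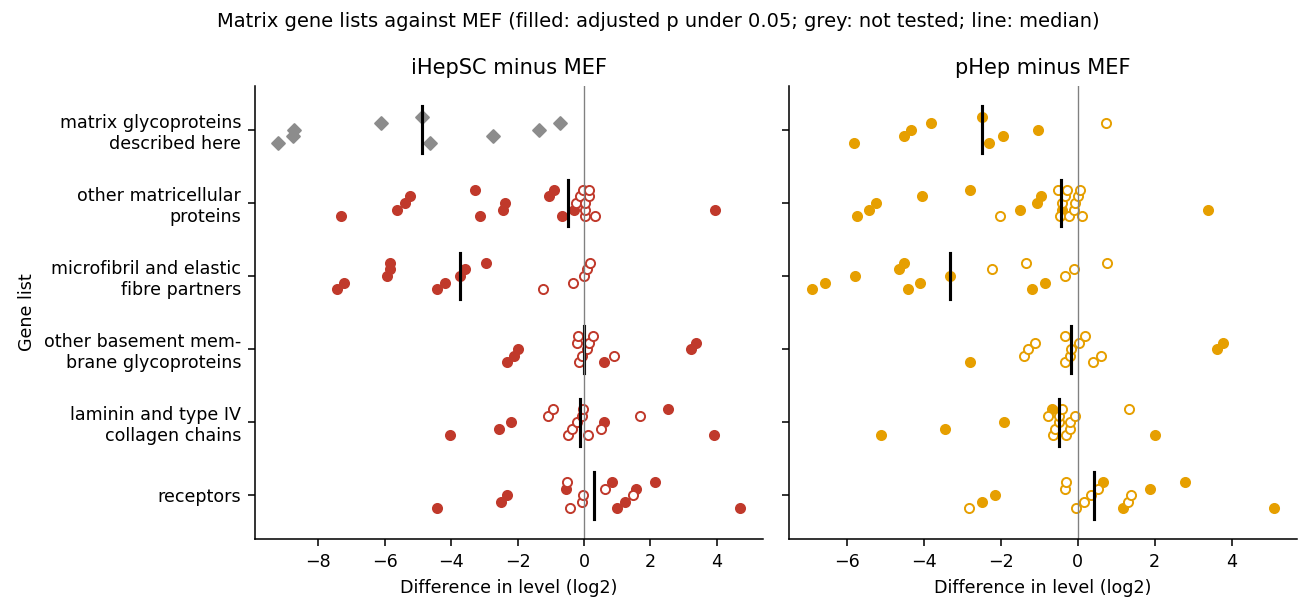
Log2 difference from MEF (horizontal axis) of each gene in the matrix gene lists, for iHepSCs on the left and pHep on the right, with filled points for adjusted p under 0.05, open points for the rest, grey diamonds for the members in the iHepSC panel alone, where they are described without a test, and black lines for list medians. The microfibril list has a median of -3.75 in iHepSCs and -3.33 in pHep, and the 3 lists at the bottom have medians between -0.49 and 0.43.

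The median log2 difference of P20 from P3 over the 9 genes was 0.30, against 0.00 for all genes. With arrays centred on Gapdh it was 0.603, but this centring shifts all genes of an array alike, so the distance to all genes is unchanged. Without that centring, the difference ranged from -0.02 (Sparc) to 0.65 (Fn1). Fn1 and Thbs2 were over 0.5 higher at P20, 2 of 9 genes, where 1.71% of all genes were. None of the 9 and 98 of all genes were over 2-fold apart. On other probe sets the difference was smaller, 0.18 for Fn1 on 1437218_at and 0.38 and 0.02 for Thbs2. Each passage was measured once, so no test was made and passage and array cannot be told apart.

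Among MEF, replicate 1 stood apart from the other arrays for these genes. It correlated with the other MEF arrays at r = 0.960 to 0.961 over all probe sets, and those correlated with each other at 0.997. Its level was over 0.5 above every other MEF array for 5 of 9 genes, where 17.6% of all genes were. For Postn it was the lowest MEF array. The median of replicate 1 minus the mean of replicates 2 to 4 was 0.56 for the members and 0.08 for all genes. The gap was 2.37 for Thbs2 on 1450663_at and 0.25 on 1422571_at, and the lowest value of -1.34 was that of Nid1 on 1441519_at. Without MEF replicate 1, 8 members were lower in pHep, and Fn1 passed the test as higher in pHep.

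**Figure D4:**
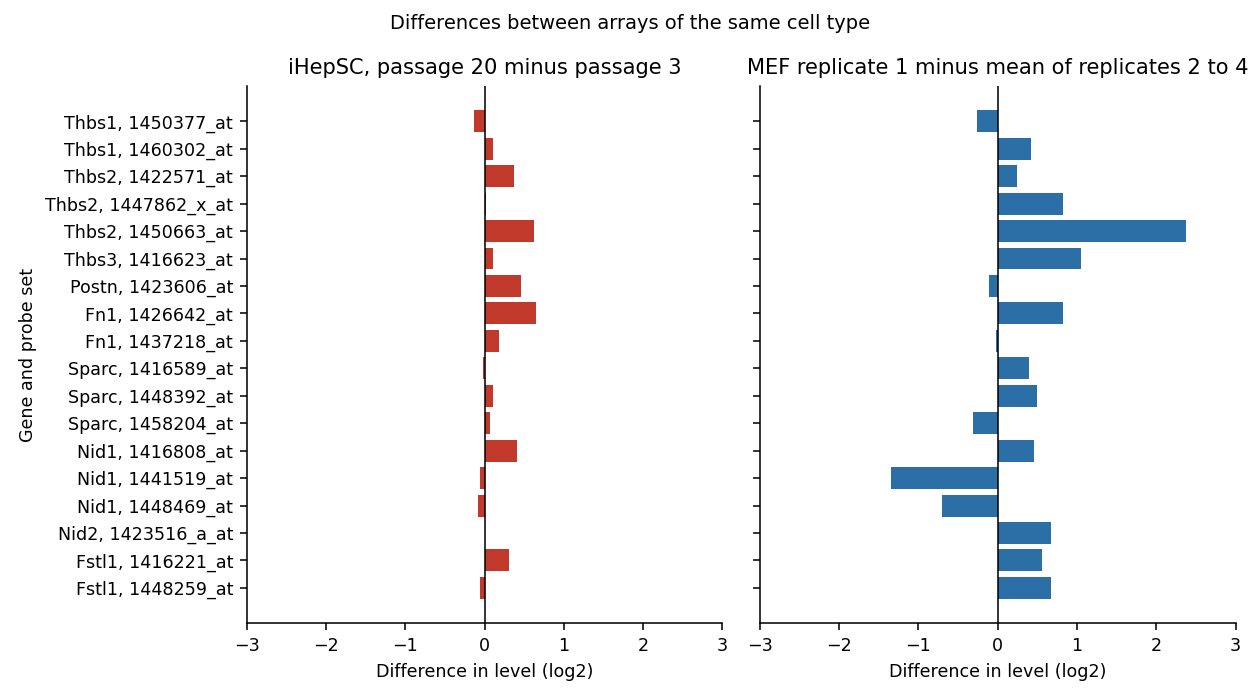
Log2 difference (horizontal axis) on each member probe set between iHepSCs at passage 20 and passage 3 (left) and between MEF replicate 1 and the mean of MEF replicates 2 to 4 (right). The passages differed by at most 0.65, and MEF replicate 1 reached 2.37 above the other arrays for Thbs2 and its lowest difference was -1.34 for Nid1.

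The members did not all follow 1 pattern over the 7 arrays. Each member was correlated with the mean profile of the members, itself included, with genes centred on their own mean but not scaled. Members with a wide range thus weigh most in that mean. The correlation was between 0.93 and 0.99 for 7 genes, 0.69 for Fn1 and 0.56 for Sparc, and that of Fn1 with Sparc was -0.12. Outside the members, the genes most like their mean profile, among 3563 genes with a range of at least 2, were Fam189b, Col1a2, Pla2g7, Ccn4, Msrb3, Colec12, Plekho1, Adgra2, Tagln and Cnn2, with r between 0.9968 and 0.9982. Col1a2, a chain of type I collagen, was at 6.77 and 6.60 in iHepSCs, 10.47 in pHep and 14.07 to 14.91 in MEF. Tagln, which encodes the actin-binding protein transgelin, was at 6.42 and 6.46 in iHepSCs, 9.82 in pHep and 14.11 to 14.53 in MEF. These correlations are descriptions over 7 arrays of 3 cell types and share their arrays.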

How the data were processed

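RNA of iHepSCs, pHep and MEF was hybridised to Affymetrix mouse genome arrays, and the authors deposited log2 levels after Robust Multiarray Analysis (background correction, quantile normalization, 1 summary per probe set). They name in-house MATLAB functions and no RMA version. The platform annotation gave the gene of each probe set: 64 probe sets were controls, 932 had several symbols and 9160 had none, and these were left out of the gene table. Where a gene had several probe sets, the one that was brightest on average over all arrays was used, with no filter. An array has no count behind its values, and precision is limited by the number of arrays. No detection call was used, so whether levels near the array minima lay above background was not determined.

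Group means were fitted with limma (version 3.58.1, R 4.3.3, lmFit and eBayes, 2-sided). Adjusted p-values are those of Benjamini and Hochberg over all 18193 genes or 45037 probe sets, with a threshold of 0.05. There were 4 residual degrees of freedom, none of them from pHep, and the fit was tested on simulated data. Promoters are from RefSeq (GRCm38.p6), and protein sequences were not analysed here. Tables and figures used Python 3.11.15, pandas 2.3.3 and matplotlib 3.10.9.

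The members, the lists and the tests were chosen with earlier results of these data known. All members are named, with up to 2 genes of the largest rise and of the largest fall past the test per list against MEF, the 10 genes most like the members' mean profile, and markers at the highest level on the array concerned. Col4a1 and the markers Thy1, Vim, Col1a1, Col3a1, Pdgfrb, Des, Hgf, Clec4f, Adgre1, Reln and Tat were named after their values were seen. Spp1, Hmcn2, Efemp2 and Serpina1a, which belong to the lists, were not analysed here. Alternatives were the mean of all probe sets, dropping those with an _x_at or _s_at suffix, a filter at 6, a second quantile normalization, centring on the median or on Gapdh (control probe sets), trend and robust fitting, the methods' t-test, the replicate number as a block, and leaving out each replicate.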

Additional observations from a re-analysis of the deposited data

Results flagged for a closer look

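MEF replicate 1 stood far from the other 3 MEF arrays on 7 of the 18 member probe sets by Dixon's ratio, the gap to the nearest array over the whole range, above the 95% critical value for 4 arrays, which chance passes in about 1 of 20 groups. Over all 45037 probe sets that are not controls, replicate 1 was the far array past this value on 17.4%. The ratio was 0.937 and 0.952 for Thbs2 on 1450663_at and 1447862_x_at, 0.938 for Fn1 on 1426642_at, 0.856 for Sparc on 1448392_at, and 0.904 and 0.96 for Fstl1 on 1416221_at and 1448259_at, where replicate 1 was the highest array. It was 0.961 for Nid1 on 1448469_at, where replicate 1 was the lowest. No cause was tested.

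On the probe set that reads Fn1, both iHepSC arrays lay below all MEF arrays and the pHep array lay above all of them. The difference of pHep from MEF, 0.74 (SE 0.40, adjusted p = 0.206), did not pass the test, and the difference between iHepSCs and pHep was -2.11 on the log2 scale (SE 0.44, adjusted p = 0.0229 by limma). This call was lost without MEF replicate 2 (adjusted p = 0.0512), without MEF replicate 4 (adjusted p = 0.0512), without iHepSC replicate 1 (adjusted p = 0.106), with Gapdh centring (adjusted p = 0.113), with the methods' t-test (adjusted p = 0.356) and with the replicate block (adjusted p = 0.269).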

How the results depend on the processing

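Of 405 log2 differences of single members under the alternatives, 359 kept their direction and side of the threshold, 39 lost the call, 2 gained it and 5 changed sign. Those 5 had no call: iHepSCs minus pHep for Thbs2 was 0.0147 with the mean of all probe sets, 0.356 with Gapdh centring, 0.31 with the replicate block and -0.416 to 0.209 when 1 replicate was left out, the highest without iHepSC replicate 1, and for Thbs3 it was 0.221 with Gapdh centring. The 2 gained were Fn1 in pHep against MEF, with the mean of all probe sets and without MEF replicate 1. Of 400 counts and medians, 343 stayed within 1.5 times or 1 SD and 57 moved. The causes were not tested unless said. In iHepSCs against MEF, 6 to 9 members were lower and 0 higher when 1 replicate was left out, a count that the choice of genes fixes.

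The replicate block, which joins arrays that share only a number (r = -0.222 and -0.207 between deviations of same-numbered arrays), gave 682 lower and 845 higher genes in iHepSCs, against 2446 and 3310. With the block, 3 members were lower in pHep than in MEF, and 2 were lower and 0 higher in iHepSCs than in pHep. The block also left 3 lower and 0 higher other matricellular genes in pHep, 0 higher other basement membrane glycoproteins in iHepSCs and 0 in pHep, 1 higher laminin or collagen chain in iHepSCs, 1 lower and 0 higher in pHep, 5 lower microfibril genes in pHep, and 1 lower and 2 higher receptors in iHepSCs and 0 lower and 2 higher in pHep. The methods' t-test, unpaired and adjusted over all genes, has fewer degrees of freedom with 1 pHep array. It gave 4 lower members in pHep against MEF and 0 lower and 0 higher in iHepSCs against pHep, 4 lower and 0 higher matricellular genes in pHep, 1 lower other basement membrane glycoprotein in iHepSCs and 0 higher in pHep, 2 lower and 0 higher chains in pHep, 5 lower microfibril genes and 0 lower receptors in pHep.

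Gapdh centring moved the all-gene median of iHepSCs minus MEF to 0.50. It gave 2 higher matricellular genes in iHepSCs, 0 higher chains and 3 higher receptors in pHep, a passage median of 0.603 and a MEF replicate 1 median of 0.988. Those 2 medians are of the members, and this centring shifts all genes of an array alike, so their distance to all genes is unchanged. The mean of all probe sets gave 1 higher member and 1 higher microfibril gene in pHep, and 2 lower other basement membrane glycoproteins there, as did quantile normalization again, which also gave 5 lower chains in iHepSCs. Without probe sets of suffix _x_at or _s_at, 1 receptor was lower in pHep.

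Leaving out 1 replicate gave 0 to 1 higher members, 7 to 14 lower matricellular genes, 1 to 4 lower and 2 to 4 higher other basement membrane glycoproteins, 4 to 8 lower and 0 to 2 higher chains, 0 to 1 higher microfibril genes and 5 to 8 higher receptors in pHep. In iHepSCs it gave 1 to 2 higher matricellular genes, 1 to 3 lower and 0 to 4 higher other basement membrane glycoproteins, 3 to 6 lower and 2 to 5 higher chains and 2 to 5 lower receptors. With 1 iHepSC array left, that array is assumed to vary like the MEF arrays.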
